A study of Homo sapiens with 9 samples.

Results

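The epithelial integrins examined here were 10 genes, 5 encoding alpha subunits (ITGA2, ITGA3, ITGA5, ITGA6, ITGAV) and 5 encoding beta subunits (ITGB1, ITGB4, ITGB5, ITGB6, ITGB8), chosen by symbol as the integrin subunits typical of epithelial cells. Each matched a single row on a primary chromosome, and all 10 lay among the 17663 genes tested of the 63677 in the table. The series measured polyadenylated RNA in HCT116, an established human colon adenocarcinoma line with no engineered allele named in the labels, at 48 hours after small interfering RNA was delivered with Lipofectamine RNAiMAX. Of the 3 groups, with 3 libraries each, siControl received a control RNA, siRNF40 an RNA against RNF40, a ubiquitin ligase that modifies histone H2B, and siTG2 an RNA against TGM2, which encodes transglutaminase 2. All cells of all groups were transfected wild-type cells of this 1 line, and the labels state neither the siRNA sequences nor whether replicates were separate cultures, so p-values measure only the spread between these libraries.

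Integrins are receptors made of 1 alpha and 1 beta chain that bind extracellular matrix outside the cell and the actin or keratin cytoskeleton inside it. The alpha-3/beta-1, alpha-6/beta-1 and alpha-6/beta-4 pairs bind laminins, and alpha-6/beta-4 anchors the hemidesmosomes of epithelia to the basement membrane. The alpha-2/beta-1 pair binds collagen, alpha-5/beta-1 binds fibronectin, and the alpha-V pairs with beta-5, beta-6 and beta-8 recognise the RGD motif in vitronectin and in latent TGF-beta. Transglutaminase 2 crosslinks proteins and, at the cell surface, binds fibronectin and beta-1 and beta-3 integrins as a co-receptor.

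To set members that moved together, and 1 that did not, side by side, 3 are shown by the sequence upstream of their start sites. ITGB8 and ITGA5 rose in both knockdowns. ITGA2 rose with siRNF40 but was not called with siTG2, as was also true of ITGB5, which is not shown. Each sequence is the 250 bases before the RefSeq start on GRCh38.p14, 5′ to 3′ along the gene's strand: chr7:20330650-20330899 on the plus strand for ITGB8, chr12:54419267-54419516 on the minus strand for ITGA5 and chr5:52989102-52989351 on the plus strand for ITGA2. Capitals mark GC boxes, the motif GGGCGG or its complement CCGCCC.
ITGB8: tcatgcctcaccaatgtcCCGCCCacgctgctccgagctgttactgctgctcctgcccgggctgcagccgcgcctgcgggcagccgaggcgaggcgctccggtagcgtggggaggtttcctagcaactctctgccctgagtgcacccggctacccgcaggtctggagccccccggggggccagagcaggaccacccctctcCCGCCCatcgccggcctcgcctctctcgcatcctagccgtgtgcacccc
ITGA5: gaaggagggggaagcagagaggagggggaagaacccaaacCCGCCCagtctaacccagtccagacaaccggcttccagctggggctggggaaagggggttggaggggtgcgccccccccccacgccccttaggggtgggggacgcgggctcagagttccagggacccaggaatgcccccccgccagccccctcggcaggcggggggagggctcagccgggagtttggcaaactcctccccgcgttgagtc
ITGA2: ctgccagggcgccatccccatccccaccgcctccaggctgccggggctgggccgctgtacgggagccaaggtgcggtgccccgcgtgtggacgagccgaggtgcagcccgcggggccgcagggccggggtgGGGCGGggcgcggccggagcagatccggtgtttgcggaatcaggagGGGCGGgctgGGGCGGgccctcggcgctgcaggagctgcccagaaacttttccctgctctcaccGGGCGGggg
ITGB8 held GC boxes at -232 and -49 from the start site, ITGA5 1 at -210, and ITGA2 4, at -119, -73, -63 and -9. The windows of all 3 were rich in G and C, at 71.2%, 70.0% and 76.4% of bases, and a GC box was found in 42.6% of the 35116 RefSeq promoters of the same length. The 3 other motifs searched on both strands, TGANTCA (in 6.57% of promoters), TATAAA (10.7%) and CCGGAAG (8.52%), were not matched in these windows. Windows of members not shown did hold some of them, such as CCGGAAG at -44 in a window of ITGB5. The RefSeq promoter table matched 8 of the 10 genes.

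The libraries held 29161285 to 35743918 reads assigned to genes, so 1 read was worth 0.880 to 1.10 in the normalized read counts given below, which are reads divided by a size factor for each library. RNF40 measured 2784 ± 219 (SD, n = 3) in siControl and 520 ± 20.6 in siRNF40, 18.7% of control, and TGM2 measured 605 ± 84.4 in siControl and 112 ± 48.6 in siTG2, 18.5% of control. TGM2 was 877 ± 74.2 in siRNF40 (adjusted p = 0.063, limma, and 0.00082 to 0.17 over the settings run), with all 3 libraries above the controls. RNF40 was at 82.8% of control in siTG2 (adjusted p = 0.019, limma, and 0.0077 to 0.26 over the settings run). Of 9 colon epithelial markers, 6 were expressed (EPCAM, KRT8, KRT18, KRT19, CDH1 and CDX2), while VIL1, CEACAM5 and LGALS4, markers of differentiated enterocytes or colonocytes, averaged under 10. The summed epithelial markers ran from 87274 to 95731 in siControl, from 129445 to 156198 in siRNF40 and from 77902 to 89020 in siTG2, with 5 of the 6 called higher in siRNF40 and 3 called lower in siTG2, and the part of this in the integrin values was not tested. Of 9 fibroblast markers, 7 averaged under 10 and DCN and LUM were at 0 in every library, with a summed level, nearly all COL1A1, of 822 to 998 for siControl, of 1375 to 1710 for siRNF40 and of 1022 to 1179 for siTG2. Leukocyte markers summed to 87.3 to 129 with siControl, with siRNF40 to 38.8 to 43.8 and with siTG2 to 247 to 256. The 4 endothelial markers summed to at most 121 and the 8 platelet and red cell markers, of which PF4, PPBP and GP9 were at 0 throughout, to at most 471 in any library. In bulk RNA, fewer cells with a transcript and less of it per cell cannot be told apart.

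Knockdown of RNF40 and of TG2 each changed most of the 10 integrin transcripts, in both directions, and many other well-expressed genes too. With siRNF40, ITGA2, ITGA5, ITGB5 and ITGB8 rose and ITGA3, ITGAV and ITGB4 fell. With siTG2, ITGA5, ITGAV and ITGB8 rose and ITGA3, ITGA6 and ITGB4 fell. The 4 genes that changed in the same direction in both were ITGA3 and ITGB4, which fell, and ITGA5 and ITGB8, which rose, and the comparisons share their control libraries. Calls were made at an adjusted p under 0.05 with limma, Benjamini-Hochberg adjusted over all genes tested. The 7 of 10 called with siRNF40 (4 higher, 3 lower) stand against 45.3% of all genes called (21.7% higher, 23.6% lower), and the 6 of 10 with siTG2 (3 higher, 3 lower) against 31.3% (12.8% higher, 18.5% lower). The libraries of a knockdown and of siControl did not overlap for 7 of 10 with siRNF40, beside 53.2% of all genes, and for 7 of 10 with siTG2, beside 46.5%. Of all calls with siTG2, 40.9% were higher, or 67.2% with libraries scaled to equal totals, under which the same 6 integrins were called in the same directions. Genes with a mean of at least 1000 were called more often, 65.7% with siRNF40 and 46.2% with siTG2, and of the 8 integrins at that level 6 and 5 were called. Whether these counts differ from those of other genes at that level was not tested. The median log2 fold change of the 10 was -0.06 with siRNF40 and -0.07 with siTG2, beside 0.02 and -0.01 over all genes. Their median absolute change was 0.53 and 0.35, beside 0.38 and 0.28 over all genes.

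**Figure D1:**
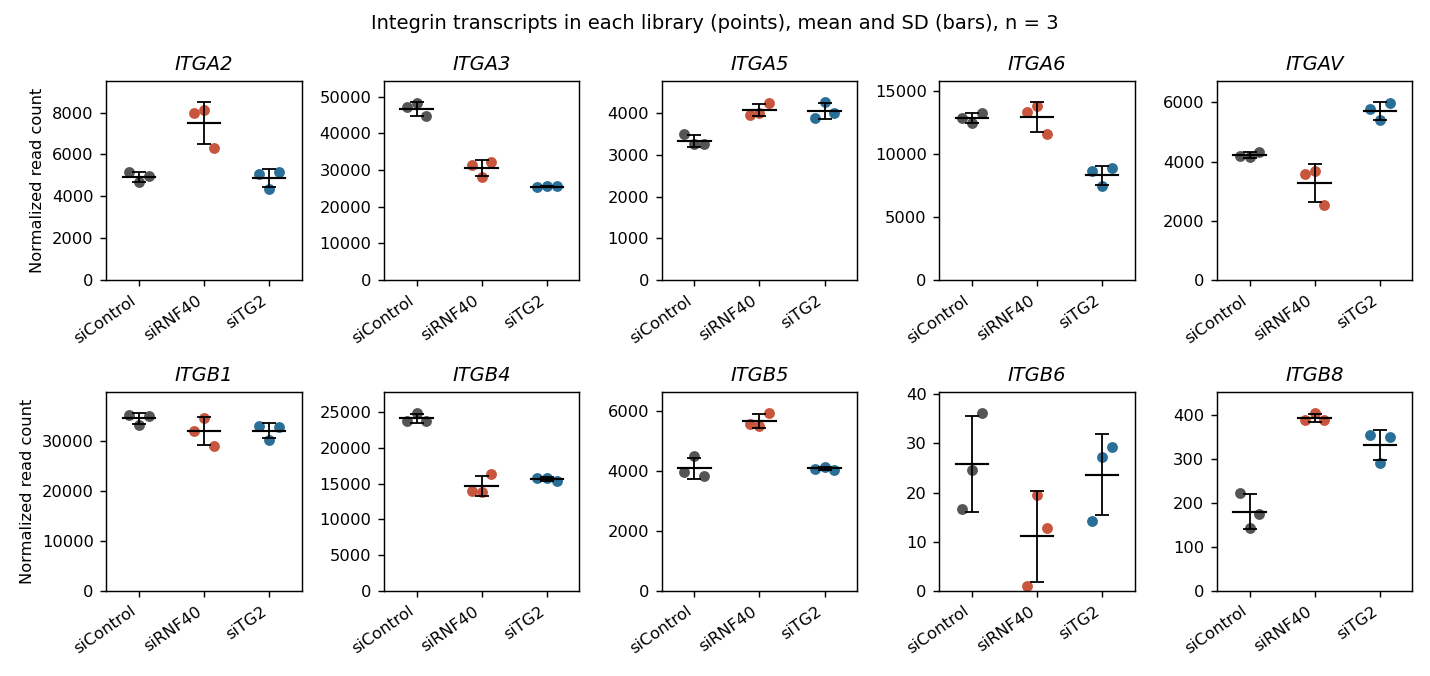
Normalized read count (y axis, linear from 0, own scale for each gene) of the 10 integrin genes in each of the 9 libraries (points) by siRNA group, with the mean and SD of 3 libraries. ITGA3 and ITGB4 lie below every control library in both knockdowns, ITGA6 only in siTG2, and ITGAV lies below the controls in siRNF40 and above them in siTG2.

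**Figure D2:**
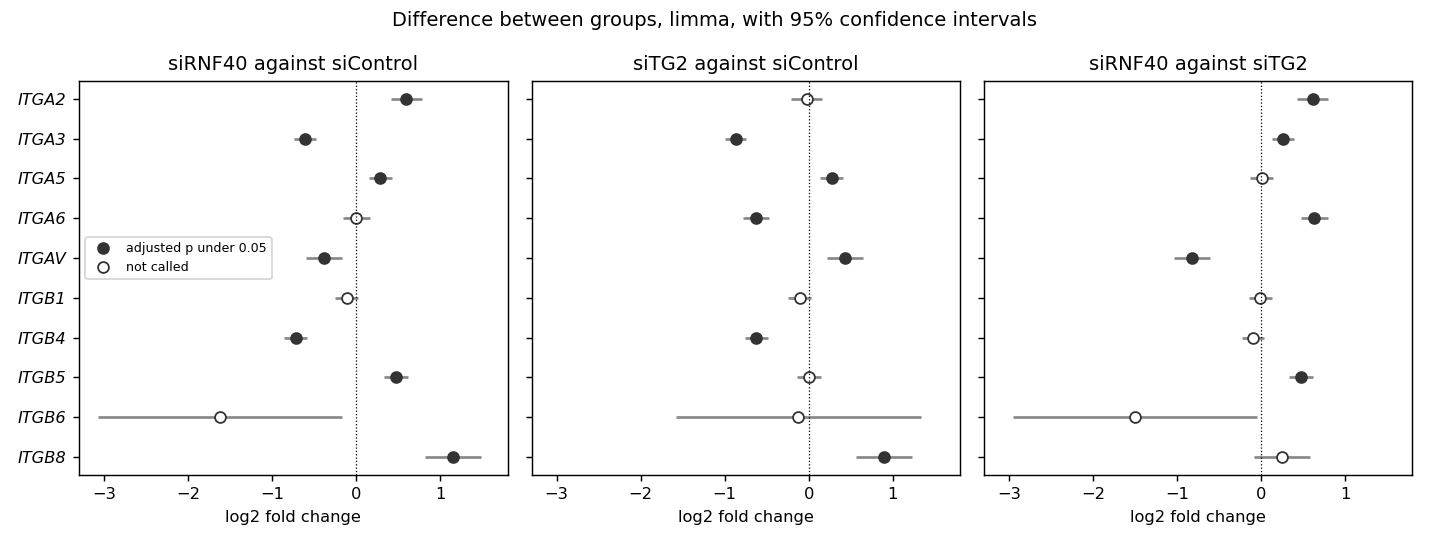
Fitted log2 fold change (x axis, log2 of normalized count + 1) with its 95% confidence interval for each integrin gene in the 3 comparisons, filled where the adjusted p was under 0.05. The interval of ITGB6 spans several log2 units, while that of ITGB1 lies close to 0 in all 3.

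Among the laminin receptors, ITGA3 (alpha-3; hg19 chr17:48133332-48167845) was one of the most abundant integrin transcripts and fell in both knockdowns. Its normalized counts were 47046, 48161 and 44656 in siControl, 31416, 28168 and 32249 in siRNF40, and 25289, 25605 and 25523 in siTG2. Every knockdown library lay below every control library, and the siTG2 libraries lay below the siRNF40 libraries. The log2 fold change was -0.61 (SE 0.061, adjusted p = 1.8e-07, limma) with siRNF40 and -0.87 (SE 0.061, adjusted p = 3.6e-09) with siTG2. The direct comparison put siRNF40 0.26 above siTG2 (adjusted p = 0.0013, limma), a call that was lost when libraries were scaled to equal totals (0.0865, adjusted p = 0.25) and turned to -0.136 (adjusted p = 0.053) after quantile normalization.

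ITGB4 (beta-4, whose long cytoplasmic tail binds plectin in hemidesmosomes; hg19 chr17:73717408-73753899) also fell in both. It measured 23707, 24852 and 23809 in siControl, 13970, 13757 and 16320 in siRNF40, and 15784, 15828 and 15387 in siTG2. No knockdown library reached the control range. The log2 fold change was -0.72 (SE 0.065, adjusted p = 4.2e-08, limma) with siRNF40 and -0.62 (SE 0.065, adjusted p = 6.6e-07) with siTG2. The difference between the knockdowns was -0.10 (95% interval -0.23 to 0.04, adjusted p = 0.22, limma). It became a call, with siRNF40 lower, under equal totals (-0.274), under quantile normalization (-0.402) and without siRNF40 replicate 3 (-0.176). GALK1, on the opposite strand and overlapping ITGB4, averaged 333 beside 18160 for ITGB4, and whether reads were counted by strand is not given in the sources used here.

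ITGA6 (alpha-6, the partner of beta-4; hg19 chr2:173292082-173371181) separated the 2 knockdowns. Its counts were 12864, 12448 and 13279 in siControl, 13321, 13825 and 11576 in siRNF40, and 8661, 7458 and 8858 in siTG2. The siRNF40 libraries surrounded the control range and the siTG2 libraries all lay below it. ITGA6 fell by 0.63 on the log2 scale with siTG2 (SE 0.075, adjusted p = 3.1e-06, limma). With siRNF40 the change was 0.0012 (95% interval -0.16 to 0.16, adjusted p = 0.99), with a sign that changed between settings. The direct difference was 0.63 (SE 0.075, adjusted p = 8.5e-07, limma).

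ITGB1 (beta-1, the common partner of alpha-2, alpha-3, alpha-5 and alpha-6 and one of the chains to which transglutaminase 2 binds; hg19 chr10:33189247-33294720) was not called in any of the 3 comparisons as fitted, though other scalings gave calls. It measured 35203, 33238 and 34965 in siControl, 31914, 34636 and 29042 in siRNF40, and 33024, 30254 and 32725 in siTG2. All siTG2 libraries were below the controls by a narrow margin, and the siRNF40 range overlapped the control range. The log2 fold changes were -0.12 (95% interval -0.26 to 0.02, adjusted p = 0.17, limma) and -0.11 (-0.25 to 0.03, adjusted p = 0.24). With siRNF40, ITGB1 was called lower after quantile normalization (-0.353, adjusted p = 0.00026, limma) and without siRNF40 replicate 2 (-0.179, adjusted p = 0.036), and its sign with siTG2 was positive under equal totals and quantile normalization. Between the knockdowns it differed by -0.01 (95% interval -0.15 to 0.13, adjusted p = 0.92, limma), and was called lower in siRNF40 under equal totals (-0.185, adjusted p = 0.023) and after quantile normalization (-0.389, adjusted p = 7e-05). A pseudogene copy, ITGB1P1, held 57.6 to 115 in the 9 libraries, and how many reads the 2 loci share was not tested.

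ITGA2 (alpha-2, the collagen-binding chain; hg19 chr5:52285156-52390609) rose with siRNF40. It measured 5157, 4694 and 4955 in siControl, 7986, 8134 and 6330 in siRNF40, and 5069, 4362 and 5174 in siTG2. The siRNF40 libraries were above all others, with replicate 3 the lowest of them, and the siTG2 and control ranges overlapped. The log2 fold change was 0.59 (SE 0.088, adjusted p = 1.9e-05, limma) with siRNF40 and -0.02 (95% interval -0.21 to 0.16, adjusted p = 0.88) with siTG2. The direct difference was 0.62 (SE 0.088, adjusted p = 8.4e-06, limma).

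ITGA5 (alpha-5, the chain of the main fibronectin receptor; hg19 chr12:54789045-54813244) rose modestly and to a similar level in both knockdowns. It measured 3514, 3262 and 3265 in siControl, 3966, 4016 and 4237 in siRNF40, and 3885, 4264 and 4001 in siTG2. All 6 knockdown libraries were above the controls. The log2 fold change was 0.28 (SE 0.066, adjusted p = 0.0016, limma) with siRNF40 and 0.27 (SE 0.066, adjusted p = 0.0033) with siTG2. The difference between them was 0.01 (95% interval -0.13 to 0.15, adjusted p = 0.93, limma), and under equal totals siRNF40 was called lower than siTG2 by -0.167 (adjusted p = 0.038).

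ITGAV (alpha-V, the partner of beta-5, beta-6 and beta-8; hg19 chr2:187454792-187545628) moved in opposite directions. It measured 4189, 4150 and 4329 in siControl, 3589, 3691 and 2533 in siRNF40, and 5767, 5394 and 5963 in siTG2. The siRNF40 libraries lay below the controls, replicate 3 farthest, and the siTG2 libraries above them. ITGAV fell by 0.39 with siRNF40 on the log2 scale (SE 0.10, adjusted p = 0.0043, limma) and rose by 0.43 with siTG2 (SE 0.10, adjusted p = 0.003). The knockdowns differed by -0.82 (SE 0.10, adjusted p = 1.6e-06, limma), the largest called difference between them among the 10 genes. Without siRNF40 replicate 3 the fall with siRNF40 was -0.214 and remained called.

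ITGB5 (beta-5, which pairs with alpha-V in a vitronectin receptor; hg19 chr3:124480795-124620265) rose with siRNF40. It measured 3976, 4499 and 3835 in siControl, 5566, 5498 and 5944 in siRNF40, and 4083, 4142 and 4056 in siTG2. All siRNF40 libraries were above all others, and the siTG2 libraries lay inside the control range. The log2 fold change was 0.47 (SE 0.068, adjusted p = 1.5e-05, limma) with siRNF40 and 0.0001 (95% interval -0.14 to 0.14, adjusted p = 1) with siTG2. The direct difference was 0.47 (SE 0.068, adjusted p = 1e-05, limma).

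ITGB8 (beta-8, which with alpha-V activates latent TGF-beta; hg19 chr7:20370325-20455377) rose the most in both knockdowns, from a low level. It measured 221, 142 and 175 in siControl, 387, 403 and 389 in siRNF40, and 353, 290 and 349 in siTG2, from 150 to 436 reads. All 6 knockdown libraries lay above the controls, and all siRNF40 libraries above all siTG2 libraries. The log2 fold change was 1.15 (SE 0.16, adjusted p = 8.6e-06, limma) with siRNF40 and 0.90 (SE 0.16, adjusted p = 0.00025) with siTG2. The difference between the knockdowns was 0.25 (95% interval -0.08 to 0.59, adjusted p = 0.19, limma). It ran from 0.0765 to 0.337 over the alternative settings and was not called in any of them.

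ITGB6 (beta-6, an epithelial partner of alpha-V that also activates latent TGF-beta; hg19 chr2:160956177-161128399) was close to the limit of detection, with 1 to 35 reads in a library. It measured 16.6, 24.7 and 36.2 in siControl, 1.02, 19.4 and 12.8 in siRNF40, and 14.1, 27.3 and 29.3 in siTG2. The ranges of all 3 groups overlapped. With siRNF40 the log2 fold change was -1.63 (95% interval -3.08 to -0.17, adjusted p = 0.064, limma), and with siTG2 it was -0.12 (-1.58 to 1.33, adjusted p = 0.92). The siRNF40 value turned into a call without siRNF40 replicate 2 (-2.28, adjusted p = 0.017, limma) or replicate 3 (-1.99, adjusted p = 0.038), and was -0.608 without replicate 1, the library with 1 read. The size of the value depends on the fit, since the authors' deposited table, made with DESeq2, gives -1.21 for ITGB6 with siRNF40.

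In the direct comparison of siRNF40 with siTG2, which tests whether the effects differ, ITGA2, ITGA3, ITGA6 and ITGB5 were higher and ITGAV lower in siRNF40, and 5 were not called. The 5 of 10 called stand against 53.3% of all genes. All 5 were among the 8 integrins with a mean of at least 1000, a level at which 73.2% of genes were called. The libraries of the 2 knockdowns did not overlap for 6 of 10, beside 58.3% of all genes. Of the 4 integrins with a shared direction, ITGB4, ITGA5 and ITGB8 were not called between the knockdowns, and ITGA3 was. In the authors' deposited tables, made with DESeq2, each integrin gene fell on the same side of the threshold against siControl as in limma.

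Per kilobase of annotated exon, ITGB1 was the most abundant transcript in siControl, at 5734 ± 178 (SD, n = 3), followed by ITGA3 at 4756 ± 183, ITGB4 at 3568 ± 93.7 and ITGA6 at 1969 ± 63.6. These neighbours did not overlap. ITGB5 (636 ± 54.3) and ITGA2 (624 ± 29.4) overlapped each other, and ITGAV (514 ± 11.5) and ITGA5 (442 ± 19.1) came next. ITGB8 (11.8 ± 2.60) and ITGB6 (5.50 ± 2.10) were far lower, and were 9th and 10th in all 3 groups. In siRNF40, ITGB4 at 2172 ± 210 per kilobase overlapped ITGA6 at 1976 ± 181. In siTG2, ITGAV moved up to 5th at 695 ± 35.2, above ITGB5 at 635 ± 6.79. With the length of the longest coding transcript in place of all exons, ITGA3 stood above ITGB1 in siControl (12721 ± 489 against 9243 ± 288 per kilobase) and ITGA5 above ITGA2. In siRNF40, ITGB4 (2481 ± 240) then lay below ITGA6 (3804 ± 348) without overlap. In siTG2, ITGAV was then 7th at 812 ± 41.1, below ITGB5 at 936 ± 10.0. The order thus depends on which length is used.

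As a share of the summed level per kilobase of all 18 alpha chains, ITGA3 made up 56.2% ± 1.43 (SD, n = 3) in siControl, 43.8% ± 3.72 in siRNF40 and 43.3% ± 1.37 in siTG2. No knockdown library reached the lowest control share of 54.8%. ITGA2 held 7.37% ± 0.355 of alpha transcripts in siControl, 13.2% ± 1.46 in siRNF40 and 10.2% ± 0.668 in siTG2, and both knockdowns lay above the highest control share of 7.61%. ITGAV held 6.08% ± 0.232 in siControl and 11.6% ± 0.264 in siTG2. The size of these shares depends on the length used: with the longest coding transcript, ITGA2 held 3.35% in siControl, 6.45% in siRNF40 and 5.07% in siTG2, and ITGAV 3.21% in siControl and 6.65% in siTG2. Among the 8 beta chains, ITGB4 held 35.8% ± 1.08 in siControl, 25.8% ± 3.09 in siRNF40 and 27.8% ± 1.04 in siTG2, while ITGB1 held 57.5% ± 1.58, 62.9% ± 3.83 and 63.9% ± 1.30. A share also depends on the levels of the other chains. ITGA2 with siTG2 and ITGB1 in both knockdowns were not called against siControl as fitted, though their mean shares were higher. With the longest coding transcript, the ITGB1 share in siRNF40 (64.75% to 71.5%) overlapped that in siControl (62.8% to 65.47%). These shares describe RNA and not the pairs of chains at the cell surface.

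Ratios of chains that pair, or that compete for a partner, were compared within each library, which removes the library scaling. With 3 libraries against 3 the exact permutation test cannot give a p below 0.1, and the 15 tests gave adjusted values of 0.17 or more. The log2 ratio of ITGA6 to ITGB4 was -0.91 ± 0.081 (SD, n = 3) in siControl, -0.92 ± 0.15 in siTG2 and -0.19 ± 0.27 in siRNF40. All siRNF40 libraries lay above all others, by 0.72 against siControl (exact permutation p = 0.1), while siTG2 differed from siControl by -0.0088 (exact permutation p = 0.9). In siTG2, where both chains fell, the ratio differed from control by less than the spread between libraries, and in siRNF40 ITGB4 fell without a called change of ITGA6. ITGB4 against ITGB1, which compete for alpha-6, was lower in both knockdowns, by -0.60 and -0.51 (exact permutation p = 0.1 each), with no overlap with the controls.

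For the chains around alpha-V, the log2 ratio of ITGB8 to ITGB5 was -4.53 ± 0.41 (SD, n = 3) in siControl, -3.85 ± 0.083 in siRNF40 and -3.63 ± 0.17 in siTG2. Both knockdowns lay wholly above the controls (exact permutation p = 0.1 each). The ratio of ITGA5 to ITGAV, the alpha chains of the fibronectin and vitronectin receptors, was -0.34 ± 0.077 in siControl, 0.34 ± 0.35 in siRNF40 and -0.49 ± 0.13 in siTG2. It was higher in all siRNF40 libraries than in any other, with replicate 3 at 0.74 and the other libraries at 0.14 and 0.12. ITGB6 against ITGB5 was lower by -2.1 in siRNF40 (exact permutation p = 0.1), a value that rests on 1 to 21 reads of ITGB6 and was -1.09 without siRNF40 replicate 1.

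**Figure D3:**
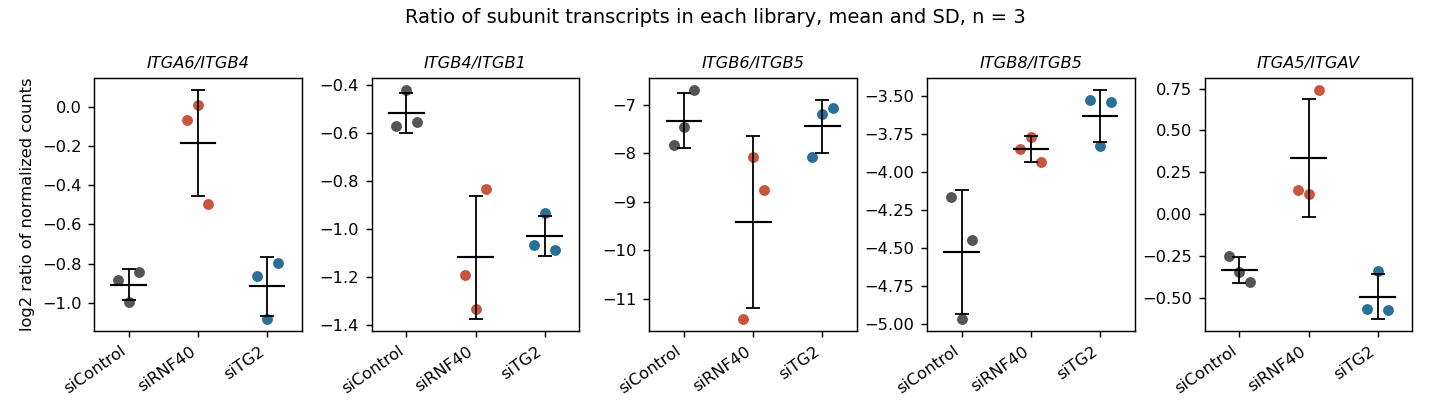
Log2 ratio of the normalized counts of 5 pairs of subunits (y axis, own scale for each pair) in each library (points) by siRNA group, with mean and SD of 3 libraries. ITGA6/ITGB4 is raised in siRNF40 and stays at the control level in siTG2, and ITGB4/ITGB1 is lowered in both.

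Most other genes of the hemidesmosome and its laminin ligand fell in siTG2, as ITGB4 and ITGA6 did. Of 6 genes (PLEC, DST, COL17A1, CD151, LAMA3 and LAMB3), 4 were called lower and 0 higher with siTG2, where 18.5% of all genes were called lower, and the list median was -0.44. PLEC, DST, CD151 and LAMB3 had a mean of at least 1000, a level at which 46.2% of genes were called in either direction with siTG2. After quantile normalization 4 were called lower and 1 higher. LAMB3, the laminin beta-3 chain, measured 17294, 18283 and 16571 in siControl, 24224, 23506 and 27896 in siRNF40, and 5111, 5151 and 4970 in siTG2. It fell by 1.77 on the log2 scale with siTG2 (SE 0.067, adjusted p = 6.2e-12, limma) and rose by 0.53 with siRNF40 (SE 0.067, adjusted p = 2.6e-06). PLEC, which encodes plectin, the linker from beta-4 to keratins, went from 80364 ± 1959 (SD, n = 3) to 45489 ± 2376 with siTG2. CD151, a tetraspanin bound to alpha-3 and alpha-6 integrins, went from 4731 ± 196 to 3436 ± 495, and LAMA3, the alpha-3 chain, from 963 ± 45.8 to 720 ± 16.0. DST (log2 fold change 0.10) and COL17A1 (-0.25), which encode the 2 bullous pemphigoid antigens, were not called. With siRNF40 the same list split: LAMB3 and CD151 rose, LAMA3 (-0.26) fell and 3 were not called, with LAMA3 no longer called after quantile normalization (adjusted p = 0.088). Over all genes, 45.3% were called with siRNF40. Between the knockdowns 3 of the 6, LAMB3, PLEC and CD151, were higher in siRNF40 and 0 lower, where 26.6% of all genes were called higher. After quantile normalization that split was 4 higher and 1 lower.

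**Figure D4:**
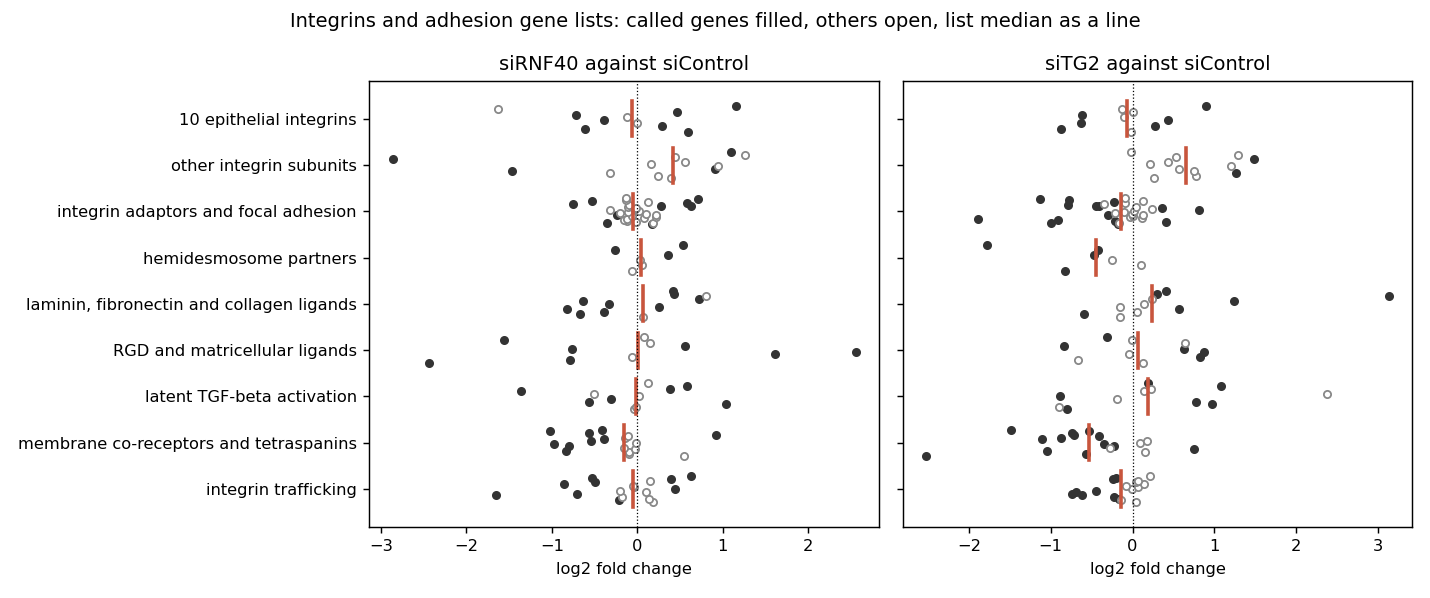
Log2 fold change (x axis) of the 10 epithelial integrins and of the tested genes of 8 adhesion lists (rows) in each knockdown against siControl, filled where the adjusted p was under 0.05, with the list median as a line. Hemidesmosome partners and membrane co-receptors lie mostly to the left of 0 in siTG2, and the integrins lie on both sides in each knockdown.

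Among other integrin ligands, 11 of 17 genes for laminins, fibronectin and collagens were tested. With siTG2, 5 rose and 1 fell, or 8 and 0 under equal totals and 8 and 1 after quantile normalization. Over all genes, 12.8% were called higher and 18.5% lower with siTG2, and 21.7% higher and 23.6% lower with siRNF40. FN1, encoding fibronectin, the ligand of alpha-5/beta-1, went from 802 ± 36.5 (SD, n = 3) to 1890 ± 70.5 (log2 fold change 1.24) and LAMB1 from 2769 ± 70.9 to 4098 ± 225, while LAMA4 fell (-0.59). With siRNF40, 4 rose and 5 fell, and FN1 (-0.64) and LAMB1 (-0.82) were among those that fell. FN1 moved in opposite directions while ITGA5 rose in both. Of 10 tested RGD and matricellular ligands, 3 rose and 4 fell with siRNF40, with CTGF at 469 ± 42.0 in siControl and 2756 ± 19.0 in siRNF40, CYR61 at 913 ± 28.5 and 2801 ± 205, and ADAM9 at 13364 ± 562 and 4548 ± 598. With siTG2, 3 rose and 2 fell (3 and 1 under equal totals), with CTGF at 856 ± 57.6, THBS1 at 940 ± 36.9 from 533 ± 51.6, and MFGE8, which rose with siRNF40 (2553 ± 80.9), at 969 ± 65.9 from 1737 ± 99.4.

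For the TGF-beta system on which beta-6 and beta-8 act, 3 of 11 genes rose and 3 fell with siRNF40, and 4 rose and 2 fell with siTG2. The siTG2 split was 6 and 2 under equal totals and 6 and 3 after quantile normalization. Over all genes, 45.3% were called with siRNF40 and 31.3% with siTG2. TGFB3, 1 of the ligands kept latent in the matrix, rose in both, from 62.9 ± 19.6 (SD, n = 3) to 127 ± 17.5 and 121 ± 25.4. SMAD7, an inhibitor that TGF-beta signalling induces, rose from 242 ± 32.4 to 363 ± 47.7 and 510 ± 38.9. TGFBR1, a TGF-beta receptor, fell with siRNF40 from 2755 ± 50.5 to 1081 ± 156 and measured 3053 ± 254 with siTG2. TGFB1 fell with siTG2, from 1814 ± 61.0 to 1048 ± 137.

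Of 17 tested membrane co-receptors and tetraspanins, 8 fell and 1 rose with siRNF40, and 12 fell and 1 rose with siTG2 (11 and 4 under equal totals and after quantile normalization), a count that includes TGM2 itself, the siTG2 target. Over all genes, 23.6% were called lower with siRNF40 and 18.5% with siTG2. Most of this list had a mean of at least 1000, a level at which 65.7% and 46.2% of genes were called in either direction. The receptor tyrosine kinase MET, which cooperates with alpha-6/beta-4, fell in both, from 13647 ± 652 (SD, n = 3) to 10331 ± 1432 with siRNF40 and 4895 ± 537 with siTG2. EGFR also fell in both, from 10032 ± 715 to 4948 ± 438 and 6961 ± 641. CD81, a tetraspanin, fell in both, from 3344 ± 292 to 1879 ± 130 with siRNF40 and 1622 ± 138 with siTG2. SDC4, a heparan sulphate proteoglycan that acts with alpha-5/beta-1 on fibronectin, rose with siRNF40 from 11383 ± 105 to 21603 ± 955 and fell with siTG2 to 6911 ± 175.

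Of 30 integrin adaptors and focal adhesion genes, 5 rose and 4 fell with siRNF40. With siTG2, 3 rose and 12 fell, but the split was 7 and 8 under equal totals and 9 and 9 after quantile normalization. Beside these counts, 45.3% of all genes were called with siRNF40 and 31.3% with siTG2. Most of these adaptor genes had a mean of at least 1000, a level at which 65.7% and 46.2% of genes were called. The genes with the largest called falls in siTG2 were ZYX (zyxin), from 4524 ± 288 (SD, n = 3) to 1220 ± 55.2, GIT1, FERMT1 (kindlin-1, an activator of integrins in epithelia), from 3739 ± 246 to 1877 ± 199, and PXN (paxillin), from 12326 ± 117 to 6529 ± 181, and these falls were called under each of the 3 other scalings. The kinase PTK2 (focal adhesion kinase) was not called with siTG2 (0.11). GIT1, a paxillin-binding scaffold, moved in opposite directions, from 2047 ± 117 to 3354 ± 392 with siRNF40 and 936 ± 91.4 with siTG2. Of 17 genes of integrin trafficking, 3 rose and 6 fell with siRNF40 (6 and 5 after quantile normalization), and 0 rose and 8 fell with siTG2 (3 and 4 under equal totals, 1 and 4 after quantile normalization). Most trafficking genes also had a mean of at least 1000, so the shares of genes called given above apply to them too. RAB21, which binds alpha chains and moves integrins through endosomes, fell in both, from 4493 ± 204 to 1430 ± 149 with siRNF40 and 2937 ± 102 with siTG2. RAB25, which recycles alpha-5/beta-1, fell from 1919 ± 19.1 to 1182 ± 162 and 1156 ± 170.

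Of the 16 other integrin subunits, 12 were tested, all far below the abundant epithelial chains. Among all genes, 21.7% were called higher and 23.6% lower with siRNF40, and 12.8% and 18.5% with siTG2. With siRNF40, ITGB7 (79.3 ± 8.83 to 170 ± 18.9, SD, n = 3) and ITGA10 rose and ITGAX and ITGA9 (60.6 ± 22.2 to 21.3 ± 9.29) fell. With siTG2, ITGAX and ITGA7 rose and 0 fell, or 4 and 0 under equal totals. ITGA7, a further laminin-binding alpha chain, measured 347, 357 and 277 in siControl, 243, 248 and 293 in siRNF40, and 760, 776 and 802 in siTG2, so it rose (1.26, SE 0.13, adjusted p = 5.3e-07, limma) where ITGA3 and ITGA6 fell. ITGB3, the other beta chain named above as a partner of transglutaminase 2, held 2.85 to 44.0 in the 9 libraries. ITGAX, usually a leukocyte chain, measured 70.7, 57.9 and 75.4 in siControl, 6.12, 17.6 and 5.34 in siRNF40, and 178, 194 and 204 in siTG2, and it averaged more than the other leukocyte markers together in siControl and siTG2 but not in siRNF40, where ITGAM at 14.2 was above ITGAX at 9.68. Of those markers, CD3E was at 0 in every library and PTPRC averaged under 10.

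The genes whose centred log2 values lay nearest to those of ITGB8 over the 9 libraries, of 11458 genes compared, were NEB, RNF165 and TMEM191A, with root mean square differences of 0.15, 0.17 and 0.17. NEB measured 189 in siControl, 403 in siRNF40 and 312 in siTG2 on average. For ITGB6, EFNA4 at 0.66 and B3GALTL at 0.79 were among the 3 nearest, a poorer likeness for a gene with few reads. The 7-base words GTCTTCA and GCGCCCT, picked in an earlier analysis of these data, were in the 3′ UTR of 0 of the 10 integrins, beside 15.7% and 3.53% of 13416 genes searched. GTCTTCA was in the coding sequence of ITGA2 and ITGA3 (16.7% of genes) and GCGCCCT in that of ITGA3 and ITGB4 (10.3%).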

How the data were processed

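PolyA RNA from 9 HCT116 libraries (3 groups of 3) was sequenced. Per the submitters' processing notes, the tools were Trim Galore 0.4.1, STAR 2.7.0, HTSeq 0.12.4 and DESeq2, and the builds hg19 and hg38. The deposited table holds a signal per gene, whole read counts that the authors divided by a size factor, with gene coordinates matching hg19. Multiplying back gave whole reads for 100% of values (tolerance 0.001 reads). The authors' deposited comparison tables hold log2 fold changes, a test score, p-values and adjusted p-values.

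From the deposited values, log2(value + 1) was fitted for all 9 libraries with limma 3.58.1 (intensity trend, 3 group means, genes with a mean of at least 10, two-sided, Benjamini-Hochberg over 17663 genes), a scale on which the pseudocount pulls fold changes of low genes toward 0 but a library with 1 read still weighs heavily. edgeR 4.0.16 and DESeq2 1.42.0 were run on the recovered reads as alternatives. The fit was also run on simulated counts in which few genes changed, in siTG2 only. That run does not test how the calls depend on scaling. Ratios were compared by exact two-sided permutation tests. Lengths came from GENCODE exons of matching gene IDs and promoters from RefSeq.

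The 10 integrins, the 8 pathway lists and the 5 marker lists were chosen with earlier results of these data known. All 10 integrins are named, with up to 4 called list genes per comparison by size of change (mean of at least 50), up to 2 uncalled by level, and the 3 genes nearest to the members that changed most. Values of a named gene in the other comparisons were added after they were seen. PECAM1, 1 marker, was not analysed here, and some items are not reported here.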

Additional observations from a re-analysis of the deposited data

How the results depend on the processing

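Over 20 alternative settings, the 7 integrin calls with siRNF40 and the 6 with siTG2 kept their direction and their call in every setting run. Scaling to equal totals moved the median of all genes by 0.14 with siTG2 and by -0.18 between knockdowns, so that 3872 genes were called higher and 1890 lower with siTG2 (67.2% of calls higher, 40.9% otherwise), and 34.1% of calls between knockdowns were higher (49.99% otherwise). Between the knockdowns, 5 integrins were then called lower, 3 after quantile normalization, 2 with the replicate block, and 1 to 3 when leaving out a library (2 without siRNF40 replicate 2, 3 without siRNF40 replicate 3), beside 1. With siRNF40, 3 to 5 were lower when leaving out a library (5 without siRNF40 replicate 2). The cause was not tested.

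Signs that turned belonged to uncalled values and, between knockdowns, to ITGA3. With siRNF40, ITGA6 was -0.00936 with TMM, -0.0318 under equal totals, -0.0312 after quantile normalization and -0.00582 with edgeR, and -0.0504 to 0.0777 without a library. With siTG2, equal totals and quantile normalization gave 0.12 and 0.14 for ITGA2 (edgeR 0.00287) and 0.0353 and 0.0362 for ITGB1, and equal totals gave 0.0137 for ITGB6. Without a library ITGA2 ran from -0.0689 to 0.0543, ITGB5 from -0.047 to 0.0682 and ITGB6 from -0.394 to 0.194. Between knockdowns, ITGA3 was -0.136 after quantile normalization, and ITGA5 was -0.0247 with TMM, -0.167 under equal totals, -0.0826 after quantile normalization and -0.0253 with edgeR. Without a library ITGA5 ran from -0.0208 to 0.0463 and ITGB1 from -0.0708 to 0.0562. Without a library the ratio differences ran from -0.0685 to 0.076 (ITGA6/ITGB4, siTG2), -0.232 to 0.0178 (ITGB4/ITGB1, between knockdowns) and -0.374 to 0.193 (ITGB6/ITGB5, siTG2). With a mean of at least 50 required, ITGB6 was not tested.

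Libraries with the same replicate number did not deviate together (correlations -0.0754 to 0.0813, and not each library was nearest to its own number). No pairing by number was seen, but 3 libraries a group cannot exclude it. The replicate block gave 3693 higher and 4042 lower genes with siRNF40, 2122 and 3042 with siTG2, and called ITGB6 lower with siRNF40 (adjusted p = 0.03, limma) and between knockdowns (-1.5, adjusted p = 0.037). On the recovered reads edgeR called 3718 genes higher and 4208 lower with siRNF40, 2473 and 2982 with siTG2, and each integrin gene as limma did. Depth limits ITGB6 most.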
